A study of Mus musculus with 4 samples.

Results

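Metallothioneins and zinc transporters were analysed in mouse liver during acetaminophen (APAP)-induced acute liver injury (ALI), as 10 genes chosen by name. These were the metallothioneins Mt1 and Mt2, the Slc30a transporters Slc30a1, Slc30a7 and Slc30a10, and the Slc39a importers Slc39a1, Slc39a4, Slc39a5, Slc39a8 and Slc39a14. All 10 were among the 27027 genes of the count table. Hepatic RNA came from male C57BL/6J mice (C57BL/6 on the sample labels), 9 to 12 weeks old and fasted for 10 h, that received NaCl solution (control) or APAP at 300 mg/kg by the intraperitoneal route. RNA was pooled per group and each pool gave 1 library of massive analysis of cDNA ends (MACE), a method that sequences 3′ ends of mRNA. Each control pool, 1 for 24 h and 1 for 48 h, held 6 mice, and each APAP pool, likewise 1 per time, held 7 mice. The control libraries held 4859661 (24 h) and 5191990 (48 h) reads, and the APAP libraries 5698778 and 4938164.

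With 1 pool per group there is no spread between mice in these data, so no test between groups was made. Folds are given with their 95% counting interval in parentheses, which covers the sampling of reads in both libraries and neither mice nor pools. Folds were computed on reads normalized by size factors. A comparison took in genes whose larger count was 20 or above, and a gene was called higher or lower at 2-fold. Since each transcript gives reads from its 3′ end, levels are in RPM (reads scaled to a common library total) and are not divided by length. They are compared between libraries and not between genes, except in ranks by read count. In bulk RNA, fewer cells of a type and less RNA per cell cannot be told apart.

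Metallothioneins are small cysteine-rich proteins that bind zinc and copper and scavenge oxidants, and liver is a main site of their induction. The transcription factor MTF-1 senses free zinc and binds metal response elements in their promoters, and glucocorticoids and interleukin-6 raise their transcription as well. Transporters of the Slc39a (ZIP) family move zinc into the cytosol, and those of the Slc30a (ZnT) family move it out of the cell or into organelles. APAP is converted in pericentral hepatocytes to a reactive metabolite that depletes glutathione, a thiol that also buffers zinc.

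The labelled tissue carried its defining transcripts. The summed level of the 6 measured hepatocyte markers was 94307 and 96127 RPM under vehicle at 24 h and 48 h, and 89338 and 106188 RPM under APAP, with Alb, the serum albumin gene, as the most abundant. Both control pools showed deviations of their own. Saa3, an acute-phase gene, had 1487 reads in the control pool at 24 h and 168 at 48 h, and Lcn2, another acute-phase gene, had 3710 and 673. The control pool at 48 h held 22 reads of Ctrb1, a gene of the exocrine pancreas, against 0 in the other 3 libraries. Folds against the other control pool or against the sum of both are therefore given for the members called below, and for other genes and lists where the choice of control pool changed what is described. For genes and lists beyond the members, these values were added after the data had been seen.

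Mt2 and Mt1 lie next to each other on chromosome 8 of GRCm38, both on the plus strand. Mt2 spans 94172664 to 94173568 and Mt1 spans 94179082 to 94180327, with a gap of 5513 bases, and each is annotated with 3 exons. Their 3′UTRs, where the MACE reads are anchored, run from 94173425 to 94173568 and from 94180191 to 94180327. No other gene matched the last 300 bases of the Mt1 or Mt2 transcripts at 95% identity over 100 bases. Mt2 overlaps the antisense entry Gm45774, which ends before the 3′UTR of Mt2 and had 0 reads in all 4 libraries.

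Promoter windows of both metallothioneins and of Slc30a1, the exporter that MTF-1 is known to regulate, are shown because all 3 are textbook targets of this factor and differed in their values after APAP. The windows are from RefSeq (GRCm38.p6) and run from 250 bases before to 50 bases after the annotated start, at chr8:94178839-94179138 for Mt1, chr8:94172368-94172667 for Mt2 and chr1:191906531-191906830 for Slc30a1, all on the plus strand. Capitals mark the core of the metal response element, searched as TGCACNC and TGCGCNC on both strands, so that a match on the minus strand appears as its reverse complement.
Mt1: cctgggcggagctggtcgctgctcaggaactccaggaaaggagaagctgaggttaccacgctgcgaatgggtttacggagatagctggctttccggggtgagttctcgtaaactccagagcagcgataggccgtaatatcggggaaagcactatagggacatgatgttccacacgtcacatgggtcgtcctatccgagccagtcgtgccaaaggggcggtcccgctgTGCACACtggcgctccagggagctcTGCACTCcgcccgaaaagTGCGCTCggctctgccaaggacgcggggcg
Mt2: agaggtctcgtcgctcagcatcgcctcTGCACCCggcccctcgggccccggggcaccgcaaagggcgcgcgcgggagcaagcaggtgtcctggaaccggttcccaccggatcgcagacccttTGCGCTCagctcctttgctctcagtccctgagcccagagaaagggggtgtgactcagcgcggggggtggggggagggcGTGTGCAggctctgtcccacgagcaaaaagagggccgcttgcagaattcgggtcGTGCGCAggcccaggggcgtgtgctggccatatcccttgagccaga
Slc30a1: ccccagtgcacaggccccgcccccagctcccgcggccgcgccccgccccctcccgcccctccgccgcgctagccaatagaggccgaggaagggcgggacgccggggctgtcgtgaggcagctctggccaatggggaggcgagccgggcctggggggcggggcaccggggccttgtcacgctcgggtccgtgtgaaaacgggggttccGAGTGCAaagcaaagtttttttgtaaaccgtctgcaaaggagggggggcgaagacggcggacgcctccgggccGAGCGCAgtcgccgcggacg

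The Mt1 window held 3 metal response cores, at positions -23, 3 and 21, counting the annotated start as 1, and the Mt2 window held 4, at -223, -128, -50 and 5. The Slc30a1 window held 2, at -43 and 31. Among all 32841 promoter windows of the same length, 25.7% held at least 1 core, 7.12% at least 2, 1.97% at least 3 and 0.518% at least 4. Mt2 and Slc30a1 also had 1 match each to the antioxidant response element of NRF2, searched as TGACNNNGC on both strands. Of all windows, 12.4% held such a match, and the window of Mt1 held 0. Slc39a1 and Slc39a8 had 1 such match each and Slc39a5 had 2, so that 5 of the 10 windows of members held one. Of the other transporter members with a window in the table, Slc30a10 had 3 metal response cores, of which a pair overlaps, Slc39a5 and Slc39a8 had 1 each over their 2 windows, and Slc30a7 and Slc39a1 had 0. Over both transporter families, 12 of 24 windows, of 19 genes, held a core, and Slc30a4 had 3 as well. Such matches describe letters and not binding. Transcripts of Mt1 with later starts, at 94179211 and 94179241, and of Mt2, at 94172860, are annotated downstream of these windows. The bases between the windows and these later starts were not searched. The counts of matches, among them the 0 of Mt1, do not cover them.

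Mt1 was among the most abundant transcripts of the APAP-treated liver. Its level was 127.6 RPM (620 reads) in the control pool at 24 h, 131.5 RPM (683 reads) in the control pool at 48 h, 2684 RPM (15298 reads) after APAP at 24 h and 1302 RPM (6428 reads) after APAP at 48 h. Both APAP pools stood far above both control pools, and the control pools were alike. Normalized reads were 18.5-fold higher after APAP at 24 h (95% counting interval 17.1 to 20.1) and 8.23-fold higher at 48 h (7.60 to 8.92). By read count, Mt1 ranked 849 and 833 among all genes under vehicle, and 60 and 90 under APAP at 24 h and 48 h.

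Mt2 was higher after APAP by about the same fold as Mt1 at 48 h and by a larger fold at 24 h. It measured 29.8 RPM (145 reads) and 68.0 RPM (353 reads) under vehicle at 24 h and 48 h, and 1166 RPM (6645 reads) and 645.4 RPM (3187 reads) under APAP. The APAP pools were again far above the controls, but the control pool at 24 h was lower than that at 48 h. Its folds at 24 h and 48 h were 34.3 (29.1 to 40.8) and 7.90 (7.07 to 8.84). Against the other control pool the fold was 14.95 at 24 h and 18.1 at 48 h, and against both control pools 20.6 and 10.9. Folds of Mt1 against the other control pool were 17.8 and 8.55, and against both 18.1 and 8.38. The large fold of Mt2 at 24 h therefore rested in part on the low control pool, whereas that of Mt1 was similar with either.

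**Figure D1:**
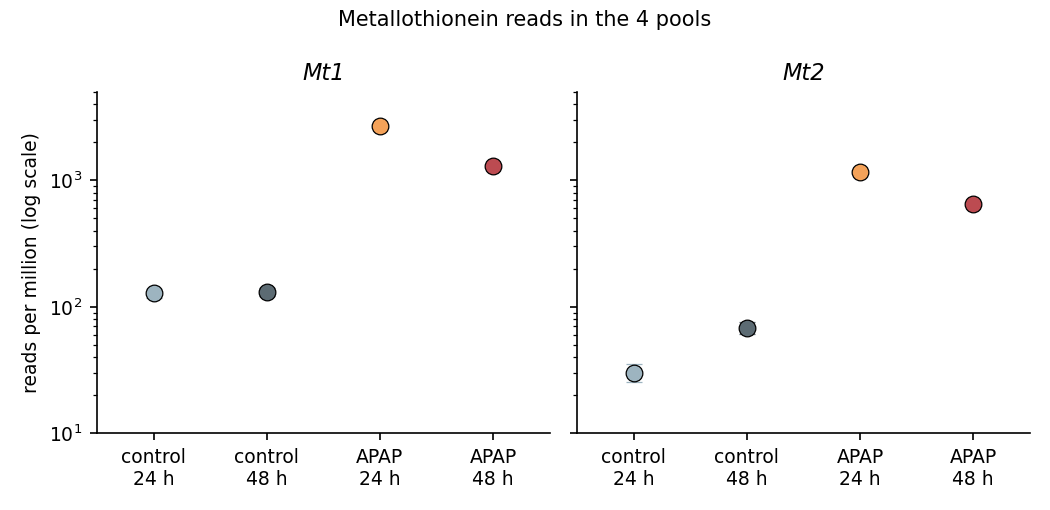
Levels of Mt1 and Mt2 in RPM (log axis) in each of the 4 pools; points are single libraries and bars are 95% Poisson counting intervals, most of which are smaller than the points. Mt1 was at 127.6 and 131.5 under vehicle and at 2684 and 1302 under APAP, and Mt2 at 29.8 and 68.0 against 1166 and 645.4.

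Mt1 and Mt2 together took 0.0157% of all reads in the control pool at 24 h (95% Clopper-Pearson interval 0.0146 to 0.0169) and 0.0200% in its 48 h counterpart (0.0188 to 0.0212). After APAP the share was 0.385% at 24 h (0.380 to 0.390) and 0.195% at 48 h (0.191 to 0.199). The number of Mt1 reads per Mt2 read, which needs no scaling between libraries, was 4.28 (3.56 to 5.16) in the control pool at 24 h and 1.93 (1.70 to 2.21) in the control pool at 48 h. It was 2.30 (2.24 to 2.37) and 2.02 (1.93 to 2.11) under APAP at 24 h and 48 h. The control pool at 24 h stood apart in this ratio, and the other 3 libraries lay close together.

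Of the 10 members, 9 passed the minimum of reads in each comparison. At 24 h, 3 of the 9 were higher by at least 2-fold (Mt2, Mt1 and Slc39a14), against 6.17% of 10892 genes tested, and 0 were lower, against 4.93%. At 48 h, 2 of the 9 were higher (Mt1 and Mt2), against 5.64% of 10831 genes tested, and 1 was lower (Slc39a4), against 5.31%. The median log2 fold of the 9 was 0.49 at 24 h and 0.39 at 48 h, beside 0.03 and -0.01 over all genes tested. By the 5-fold threshold that the study applied, both metallothioneins were higher at both times, and 1.18% and 0.646% of all genes tested were. The call of Slc39a4 was lost when library totals replaced the size factors, a scaling that raises the log2 folds of all genes by 0.19 at 24 h and 0.27 at 48 h. Folds between 0.88 and 1 at 24 h and between 0.83 and 1 at 48 h, here and in the paragraphs that follow, lie above 1 with that scaling.

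**Figure D2:**
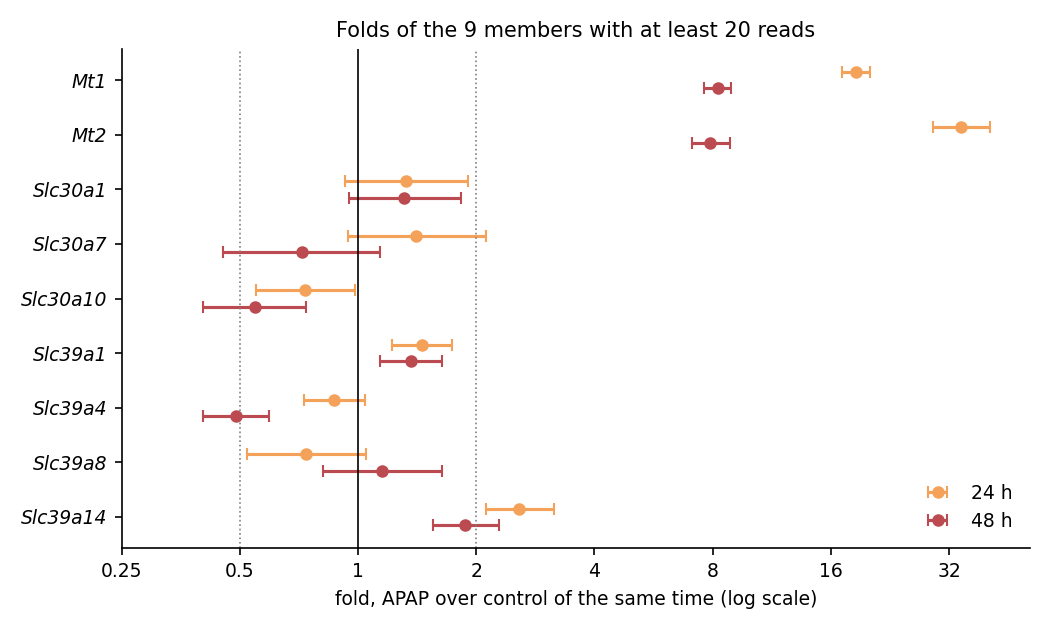
Fold of APAP over the control pool of the same time (log axis) for the 9 members with at least 20 reads; points are folds of normalized reads, bars are 95% counting intervals and dotted lines mark 2-fold lower and 2-fold higher. Mt1 and Mt2 lie at 18.5 and 34.3 at 24 h and at 8.23 and 7.90 at 48 h, and every transporter lies between 0.49 and 2.58.

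Among all genes tested, the metallothioneins were near the top of the distribution. Mt2 was at percentile 99.97 and Mt1 at 99.94 of the folds at 24 h, and at 99.72 and 99.74 at 48 h. Slc39a14 was at percentile 96.5 at 24 h and 93.2 at 48 h, and Slc39a4 was at 32.1 and 4.97. The remaining transporters with enough reads lay between percentiles 18.5 and 83.5 at 24 h and between 7.04 and 81.8 at 48 h.

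**Figure D3:**
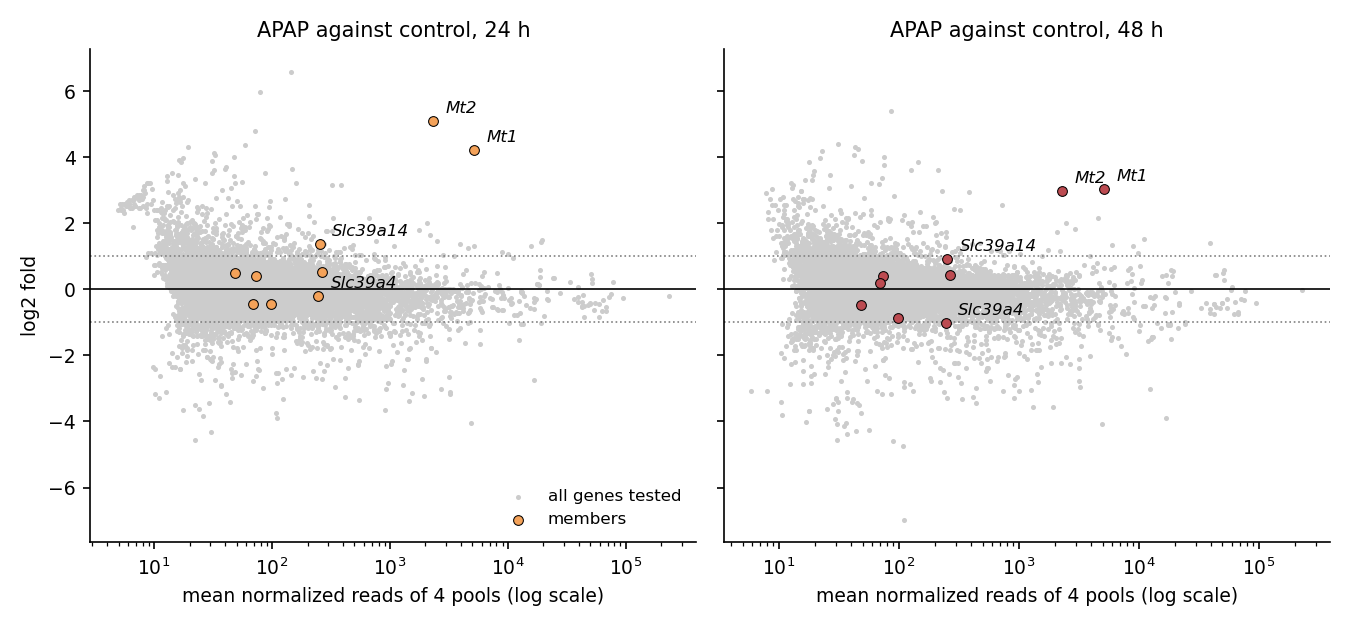
Log2 fold of APAP over control at 24 h (left) and 48 h (right) against the mean normalized reads of the 4 pools (log axis) for all genes tested (grey, 10892 and 10831) and for the 9 members with enough reads (coloured); dotted lines mark 2-fold. Mt1 and Mt2 lie near the upper edge at both times, at percentiles 99.94 and 99.97 at 24 h, while the transporters lie within the cloud.

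Slc39a14 encodes ZIP14, an importer of zinc, iron and manganese at the hepatocyte membrane that interleukin-6 is known to induce. It had 130 reads (26.8 RPM) and 158 reads (30.4 RPM) under vehicle at 24 h and 48 h, and 447 reads (78.4 RPM) and 339 reads (68.6 RPM) under APAP. Both APAP pools exceeded both control pools. The folds were 2.58 (2.11 to 3.16) and 1.88 (1.55 to 2.28) at 24 h and 48 h. At 48 h it was near the threshold, being 2.26 with library totals, 2.15 against the control pool at 24 h and 2.0 against both. At 24 h it was 2.25 against the control pool at 48 h and 2.40 against both. The gene lies on chromosome 14 from 70303469 to 70351425 on the minus strand, with 10 exons in the annotated form with most exons.

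Slc39a4 encodes ZIP4, the zinc importer that is defective in the inherited zinc deficiency acrodermatitis enteropathica. It had 234 reads (48.2 RPM) and 304 reads (58.6 RPM) under vehicle at 24 h and 48 h, and 272 reads (47.7 RPM) and 170 reads (34.4 RPM) under APAP. The APAP pool at 48 h was the lowest of the 4 and the control pool at 48 h the highest. At 24 h the fold was 0.87 (0.73 to 1.04), and at 48 h it was 0.49 (0.40 to 0.59). At 48 h it was 0.60 against the control pool at 24 h, 0.54 against both and 0.59 with library totals, all short of 2-fold. Slc39a4 lies on chromosome 15 from 76612383 to 76617384 on the minus strand.

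The balance of these 2 importers differed between control and APAP libraries. There were 0.56 reads of Slc39a14 per read of Slc39a4 (0.44 to 0.69) in the control pool at 24 h and 0.52 (0.43 to 0.63) in its 48 h counterpart. Ratios after APAP were 1.64 (1.41 to 1.92) in the earlier and 1.99 (1.65 to 2.41) in the later pool. This ratio, chosen after both genes' values had been seen, does not depend on the scaling between libraries. Among all reads of the 13 Slc39a genes in the table, Slc39a14 took 14.3% (12.1 to 16.8) and 15.6% (13.4 to 17.9) under vehicle and 27.9% (25.7 to 30.2) and 28.0% (25.5 to 30.6) under APAP. The share of Slc39a4 was 25.8% (23.0 to 28.8) and 29.9% (27.1 to 32.8) under vehicle, against 16.98% (15.2 to 18.9) and 14.0% (12.1 to 16.1) after APAP.

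Slc39a1 encodes ZIP1, a widely expressed importer of the plasma membrane. It had 197 reads (40.5 RPM) and 202 reads (38.9 RPM) under vehicle, and 383 reads (67.2 RPM) and 315 reads (63.8 RPM) under APAP at 24 h and 48 h. The folds were 1.46 (1.22 to 1.74) and 1.36 (1.14 to 1.64) at 24 h and 48 h. Both were below 2-fold, and both APAP pools lay above both control pools. Slc39a1 lies on chromosome 3 from 90248172 to 90253612 on the plus strand.

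Slc39a8 encodes ZIP8, an importer of zinc and manganese that is close in sequence to ZIP14. Its reads were 70 and 60 under vehicle and 69 and 79 under APAP, a narrow range in which treated and control pools overlap. The folds were 0.74 (0.52 to 1.04) and 1.15 (0.81 to 1.64) at 24 h and 48 h, with 1 inside both intervals. Its entry in the table also holds reads that the authors could not separate from the overlapping entries Gm43428 and Gm43429. Slc39a5, which encodes ZIP5, an importer of the basolateral membrane, had 1 read in each control pool, and 4 and 2 under APAP, too few for a comparison. Slc39a8 lies on chromosome 3 from 135825279 to 135888572 on the plus strand, and Slc39a5 on chromosome 10 from 128395931 to 128401229 on the minus strand.

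Among the Slc30a members, Slc30a1 encodes ZnT1, which carries zinc out of the cell and is known as a target of MTF-1. It had 51 reads (10.5 RPM) and 64 reads (12.3 RPM) under vehicle, and 90 reads (15.8 RPM) and 96 reads (19.4 RPM) under APAP at 24 h and 48 h. The APAP pools were the higher ones, with size factors by a margin of the size of the counting error. At 24 h the fold was 1.32 (0.93 to 1.90), and at 48 h it was 1.31 (0.95 to 1.83). The upper bounds lie below the folds of Mt1 and Mt2 at the same times. Both lower bounds lie above 1 with library totals, which multiply folds by 1.14 at 24 h and 1.20 at 48 h. Against the other control pool the folds of Slc30a1 were 1.12 and 1.55, and against both 1.21 and 1.42. Slc30a1 lies on chromosome 1 from 191906767 to 191913247.

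Slc30a10 encodes ZnT10, which exports manganese from hepatocytes into bile. It had 99 reads (20.4 RPM) and 120 reads (23.1 RPM) under vehicle, and 97 reads (17.02 RPM) and 75 reads (15.2 RPM) under APAP at 24 h and 48 h. Its folds at 24 h and 48 h were 0.73 (0.55 to 0.98) and 0.55 (0.40 to 0.74). Both APAP pools were below both control pools after normalization, without reaching 2-fold. Slc30a10 lies on chromosome 1 from 185454848 to 185468762 on the plus strand. The antisense gene Gm2061, which overlaps it, had 0 and 5 reads under vehicle and 4 and 2 under APAP.

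Slc30a7 encodes ZnT7, which loads zinc into the Golgi apparatus. Its reads were 40 and 45 under vehicle, and 75 and 37 under APAP at 24 h and 48 h. The APAP pool at 24 h was the highest and the other 3 libraries were close to each other. The folds were 1.40 (0.94 to 2.12) and 0.72 (0.45 to 1.14) at 24 h and 48 h. Slc30a7 lies on chromosome 3 from 115938973 to 116007406 on the minus strand.

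**Figure D4:**
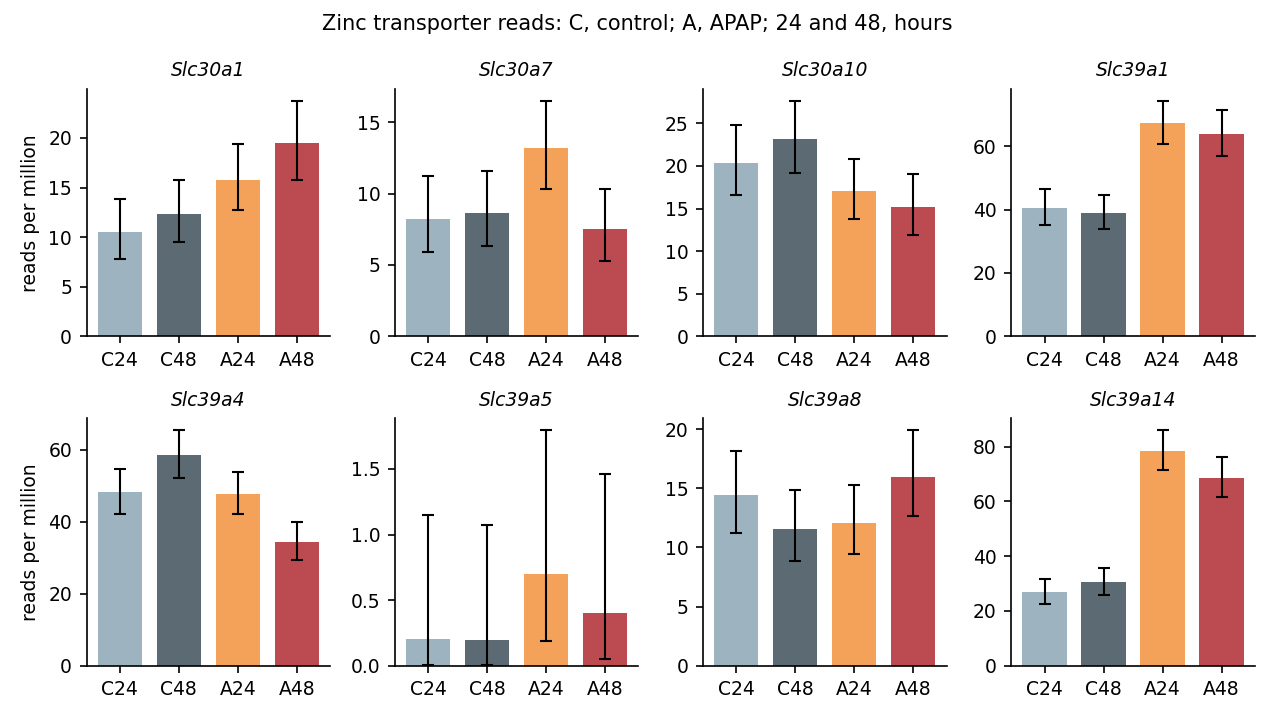
Levels of the 8 zinc transporters in RPM in the control (C24, C48) and APAP (A24, A48) pools; bars are single libraries and error bars are 95% Poisson counting intervals, with a separate axis for each gene. Slc39a14 was at 26.8 and 30.4 under vehicle and 78.4 and 68.6 under APAP, Slc39a4 was lowest in the APAP pool at 48 h (34.4), and Slc39a5 rests on 4 reads or fewer.

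Slc39a14, Slc39a8 and Slc30a10 are also the principal transporters of manganese in the liver. Of these 3, Slc39a14 was higher at 24 h, against 6.17% of all genes tested, and 0 were called at 48 h, or 1 (Slc39a14) against the other control pool or both. Slc30a10 had the opposite direction from Slc39a14 at both times, at 0.73 and 0.55 against 2.58 and 1.88.

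The direction of change with time after APAP was downward for both metallothioneins. Normalized reads at 48 h were 0.46-fold those at 24 h for Mt1 (0.45 to 0.48) and 0.53-fold for Mt2 (0.51 to 0.55), and both were above control at 48 h as given above. Mt1 was the 1 member of 9 to pass 2-fold between the APAP pools, against 5.7% of 11126 genes tested. The corresponding ratios were 0.54 (0.36 to 0.82) for Slc30a7, 0.69 (0.57 to 0.84) for Slc39a4, 0.83 (0.72 to 0.96) for Slc39a14 and 0.91 (0.78 to 1.05) for Slc39a1. Slc30a10 was at 0.85 (0.62 to 1.16), Slc30a1 at 1.17 (0.87 to 1.58) and Slc39a8 at 1.26 (0.90 to 1.77). The median log2 fold over the 9 members was -0.26, beside -0.01 over all genes tested.

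Between the control pools, Mt2 was the 1 member of 9 to pass 2-fold, against 3.36% of 10157 genes tested. It was 2.30-fold higher at 48 h than at 24 h (1.89 to 2.81). Mt1 did not share this difference, at 1.04 (0.93 to 1.16), although both genes lie in the same cluster. Slc39a4 was at 1.23 (1.03 to 1.46), and the other 6 members ranged from 0.81 to 1.18. The median log2 fold was 0.19 over the 9 members and 0.02 over all genes tested.

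Beyond the 8 transporter members, 1 other gene of both families was called after APAP. The table held 9 Slc30a and 13 Slc39a genes, of which 15 had enough reads at 24 h and 14 at 48 h. At 24 h, 2 of 15 were higher (Slc39a14 and Slc30a5) and 0 lower, and at 48 h, 0 of 14 were higher and 1 lower (Slc39a4). Over all genes tested the shares were 6.17% higher and 4.93% lower at 24 h, and 5.64% and 5.31% at 48 h. Slc30a5, which encodes ZnT5 of the early secretory pathway, had 41 and 58 reads under vehicle, and 110 and 63 under APAP at 24 h and 48 h. Its fold at 24 h was 2.01 (1.39 to 2.95), just past the threshold, and 0.95 (0.65 to 1.38) at 48 h. The call at 24 h was lost against the other control pool (1.51) and against both (1.72). Slc30a6, which encodes its partner ZnT6, had 53 and 24 reads under vehicle and 52 and 48 under APAP, so that the control pool at 48 h stood apart. The fold of Slc30a6 was 0.73 at 24 h and 1.75 at 48 h, and 0.43 (0.25 to 0.70) between the control pools. Against the other control pool it was 1.72 at 24 h and 0.75 at 48 h, and against both 1.04 and 1.06. Its direction after APAP therefore turned with the control pools exchanged.

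The other family members with enough reads were within 2-fold after APAP. Slc30a9 had 122 and 128 reads under vehicle and 139 and 128 under APAP. Slc39a11 had 126 and 101 against 185 and 116, Slc39a9 had 69 and 92 against 110 and 78, Slc39a3 had 36 and 48 against 60 and 43, and Slc39a13 had 28 and 22 against 31 and 34. Slc39a6 reached 20 reads only in the APAP pool at 24 h and had 8, 13 and 14 in the others. Summed over the family, Slc30a reads were 1.04-fold those of the control pool at 24 h (0.92 to 1.18) and 0.91-fold at 48 h (0.80 to 1.04). For Slc39a reads the same folds were 1.32 (1.22 to 1.44) and 1.04 (0.96 to 1.13). Neither family as a whole approached the folds of the metallothioneins.

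The other metallothioneins were scarce. Mt3, mainly a brain metallothionein, had 3 and 1 reads under vehicle and 7 and 17 under APAP. Mt4, a metallothionein of stratified epithelia, had 1 read after APAP at 48 h and 0 elsewhere. Both are in the same cluster on chromosome 8 as Mt1 and Mt2. Mtf1, which encodes the zinc sensor, had 58 and 55 reads under vehicle and 81 and 61 under APAP, with folds of 1.05 (0.74 to 1.49) and 0.97 (0.66 to 1.42). The value of Mtf1 at 48 h lies above 1 when scaled by library totals.

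Known targets of the regulators of metallothionein transcription were read beside these values, with 6.17% and 5.64% of all genes tested higher and 4.93% and 5.31% lower at 24 h and 48 h, and medians over all genes of 0.03 and -0.01. The list of metal response genes includes Slc30a1 and Mtf1, the latter the regulator itself, and leaves out Mt1 and Mt2. Of its 6 measurable genes, 0 were higher and 0 lower at 24 h, and 1 was higher and 0 lower at 48 h. Their median log2 fold was 0.23 and 0.45. The gene at 48 h was Hamp, which encodes the iron hormone hepcidin, with 5953 and 5889 reads under vehicle and 15401 and 19538 under APAP. Hamp was at 1.94 (1.88 to 2.00) in the earlier and 2.90 (2.82 to 2.99) in the later comparison. At 24 h it passed 2-fold against the other control pool (2.08). Ndrg1, a gene that hypoxia induces as well, was at 1.03 (0.52 to 2.10) at 24 h and 1.64 (1.05 to 2.60) at 48 h. At 48 h it was at 3.09 against the other control pool and at 2.12 against both, which raised the count at 48 h to 2. At 24 h those values were 0.55 and 0.71. Hamp is also an acute-phase gene that interleukin-6 induces.

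Glucocorticoid receptor targets had the highest median of the 5 lists. Of 9 genes, 6 were higher and 0 lower at 24 h, and 5 were higher and 0 lower at 48 h, with a median log2 fold of 1.54 and 1.27. Cebpd, a transcription factor of the acute phase, had 11 and 21 reads under vehicle and 141 and 73 under APAP, a fold of 9.60 (5.21 to 19.7) at 24 h and 3.04 (1.85 to 5.20) at 48 h. With the control pools exchanged, Cebpd was at 5.33 and 5.47, values that do not fall with time. Fkbp5, a co-chaperone of the receptor, was 4.63-fold (3.59 to 6.05) and 3.12-fold (2.44 to 4.03) higher. Pck1, the enzyme that commits carbon to gluconeogenesis, was 4.07-fold (3.75 to 4.41) and 3.31-fold (3.07 to 3.56) higher, and Per1, a clock gene, 4.0-fold (2.14 to 8.13) and 4.98-fold (2.52 to 10.9). Tat, the liver enzyme tyrosine aminotransferase and a classic target, was at 0.86 (0.80 to 0.92) and 1.07 (1.01 to 1.13), and Tsc22d3 was at 1.29 and 1.14. The list was therefore not uniform. With the control pools exchanged, 5 were higher at 24 h, where Dusp1, a phosphatase of MAP kinases, was at 1.80, and 6 at 48 h.

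Acute-phase targets of interleukin-6 and STAT3 went both ways. Of 16 genes, 7 were higher and 1 lower at 24 h, and 6 were higher and 2 lower at 48 h, with a median log2 fold of 0.23 and 0.49. Socs3, the feedback inhibitor of STAT3 signalling, had 11 and 17 reads under vehicle and 138 and 49 under APAP, with folds of 9.40 (5.09 to 19.3) and 2.52 (1.43 to 4.67). The fibrinogen chains Fga and Fgb were 2.82-fold (2.76 to 2.88) and 2.70-fold (2.65 to 2.76) higher at 24 h and below 2-fold at 48 h. Lcn2 was 2.38-fold (2.29 to 2.47) and 4.51-fold (4.16 to 4.91) higher, and Saa3 was at 0.098 (0.084 to 0.114) at 24 h, in both cases against control pools that differed from each other as given above. Against the other control pool, Lcn2 was at 13.9 and 0.77 and Saa3 at 0.92 and 0.082. Saa2, a serum amyloid gene that may share reads with Saa1, was at 0.58 at 24 h and 0.34 (0.32 to 0.35) at 48 h, and at 1.62 and 0.12 against the other control pool. With that choice, 8 genes of the list were higher and 0 lower at 24 h, and 2 were higher and 3 lower at 48 h. Besides Lcn2, the calls at 48 h that ended were those of Hp (1.33), which encodes haptoglobin, Lrg1 (1.24) and Itih3 (1.93). The median log2 fold was then 0.93 at 24 h and 0.25 at 48 h, so that both the counts of this list and the order of its medians depended on the control pool.

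NRF2 is the transcription factor of antioxidant genes that the electrophile sensor KEAP1 holds back, and APAP is known to activate it in mouse liver. Of 11 of its targets at 24 h, 3 were higher and 0 lower, and of 12 at 48 h, 2 were higher and 0 lower, with a median log2 fold of 0.52 and 0.09. Srxn1, which reduces oxidized peroxiredoxins, was 4.51-fold higher at 24 h (3.79 to 5.40). Hmox1, the haem oxygenase, was 2.24-fold (1.72 to 2.95) and 2.33-fold (1.75 to 3.14) higher, and Osgin1 2.06-fold (1.82 to 2.34) at 24 h. Against the other control pool, Osgin1 was at 1.86 at 24 h and Hmox1 at 1.94 at 48 h, both below 2-fold. With that choice, 1 target was lower at 24 h, namely G6pdx, the first enzyme of the pentose phosphate pathway, at 0.35. Slc7a11, the cystine importer, had 2 and 3 reads under vehicle and 16 and 23 under APAP.

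Copper, which metallothioneins also bind, was followed by 13 genes of its transport and delivery, of which 12 were in the table. Of 11 at 24 h, 1 was higher and 0 lower, against 6.17% and 4.93% of all genes tested. Of 10 at 48 h, 0 were higher and 1 lower, against 5.64% and 5.31%. The median log2 fold was 0.02 at 24 h and -0.12 at 48 h. The higher gene was Steap4, a metalloreductase, at 2.32-fold (1.85 to 2.94). The lower gene was Ccs, the copper chaperone of superoxide dismutase, with 757 and 1078 reads under vehicle and 619 and 554 under APAP, a fold of 0.61 (0.55 to 0.68) at 24 h and 0.45 (0.40 to 0.50) at 48 h. Against the other control pool it was 0.46 and 0.60, so that the call moved to 24 h.

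**Figure D5:**
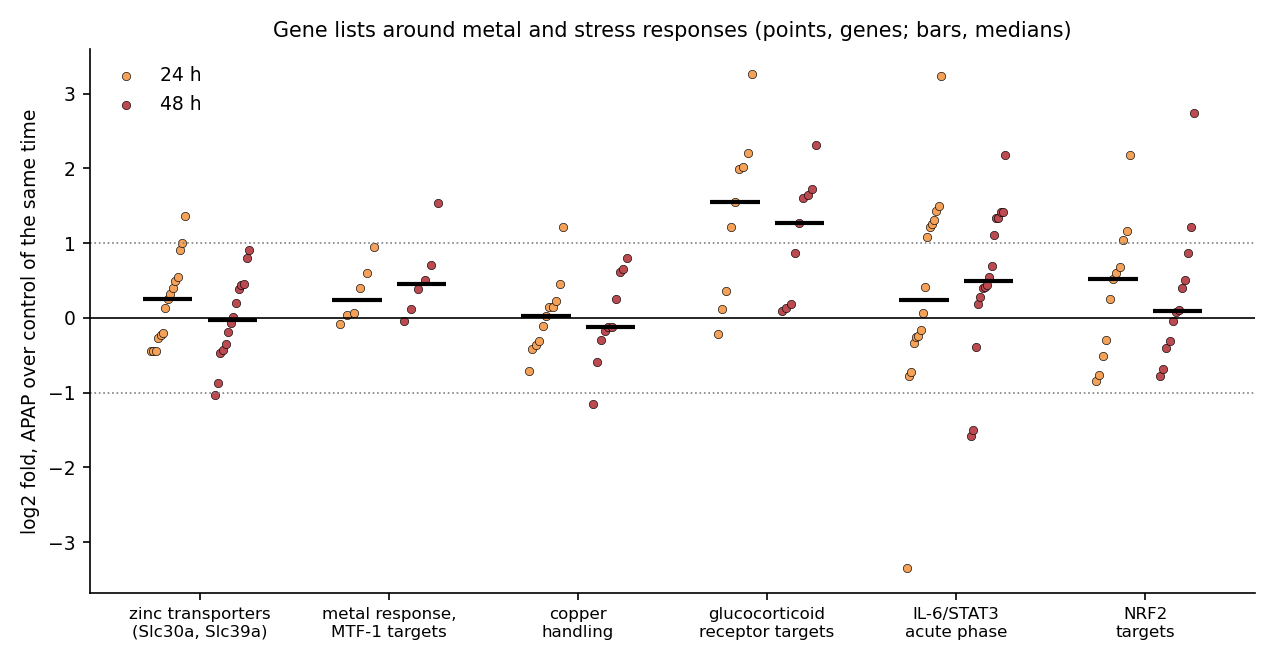
Log2 fold of APAP over the control pool of the same time for the genes of the zinc transporter families and of 5 lists with enough reads; points are genes, thick bars are medians and dotted lines mark 2-fold. The median of the glucocorticoid receptor targets was 1.54 at 24 h and 1.27 at 48 h, and the medians of the other sets lay between -0.12 and 0.52, where that of the acute-phase genes at 24 h was 0.93 with the control pools exchanged.

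The genes nearest to the profile of Mt1 and Mt2 were sought among 11246 genes by the Euclidean distance of centred log2 normalized reads over the 4 libraries, where Mt1 and Mt2 are each at 0.46 from their mean. The nearest was Cxcl1, a chemokine that attracts neutrophils, at 0.49, with 5 and 10 reads under vehicle and 187 and 119 under APAP. S100a8, a calcium-, zinc- and manganese-binding protein of neutrophils, was at 0.58, with 5 and 10 against 139 and 106 reads. Maff, a small Maf transcription factor, was at 0.86, and Ctgf, a matricellular protein, at 0.96. The next were E030018B13Rik (1.08), Gsta1 (1.10), Gm3776 (1.15), AA986860 (1.18), 4931428L18Rik (1.22) and Cdkn1a (1.27), of which Gsta1 encodes a glutathione transferase and Cdkn1a the cell cycle inhibitor p21. Gsta1 belongs to a family of similar copies, and whether they shared reads was not tested. Most of these genes had far fewer reads than Mt1 and Mt2, so that 4 points and small control counts set their place.

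Markers of liver cell types differed between the pools as well. Pericentral hepatocyte markers were lower in 5 of 6 genes at 24 h and 6 of 6 at 48 h, against 4.93% and 5.31% of all genes tested. Their summed level was 2766 and 2981 RPM under vehicle and 1292 and 1003 RPM under APAP, with Cyp2e1 as the most abundant. The summed level of neutrophil markers was 3.09 and 3.08 RPM under vehicle and 42.8 and 34.6 RPM under APAP, of which S100a8 made up 24.4 and 21.5 RPM. Of its 5 markers in the table, 1 and 2 were at 0 under vehicle and 0 and 1 under APAP, and Elane, which encodes neutrophil elastase, had 3 reads after APAP at 24 h and 0 in the rest. Monocyte and macrophage markers summed to 63.0 and 71.1 RPM under vehicle and 138.6 and 262.4 RPM under APAP, with Lyz2 the most abundant, and 2 of 5 genes at 24 h and 5 of 6 at 48 h were higher, against 6.17% and 5.64% of all genes tested. With the control pools exchanged these were 4 of 5 and 4 of 6, with Cx3cr1, a chemokine receptor of monocytes, at 1.19 at 48 h.

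The remaining marker lists are given by their sums, in which abundant genes weigh most and members can go both ways. The median log2 fold of the periportal list was -0.22 at 24 h and 0.24 at 48 h. At 48 h its members Pck1 and Cyp2f2 were at 3.31 and 0.25. In the Kupffer cell list at 24 h, Marco was at 3.06 and Clec4f at 0.53. In the cholangiocyte list of 6 genes, only Sox9 and Spp1 had enough reads. Krt19 had 6 and 13 reads under vehicle and 8 and 8 under APAP. Krt7 had 8 and 8 against 15 and 2, and Epcam had 2 and 10 against 5 and 7. Summed normalized reads after APAP, at 24 h and 48 h, were 0.83-fold and 0.92-fold for hepatocytes, 0.66-fold and 0.77-fold for periportal hepatocytes, 0.99-fold and 1.41-fold for Kupffer cells and 1.11-fold and 1.06-fold for endothelium. They were 1.26-fold and 2.03-fold for stellate cells, and 2.78-fold and 1.67-fold for cholangiocytes, for which Sox9 was the most abundant gene. They were 0.70-fold and 0.53-fold for erythroid cells and 0.58-fold and 0.36-fold for exocrine pancreas. The pancreas value at 24 h was almost wholly that of Cela1, which made up 16.9 of 17.1 RPM under vehicle and 11.2 of 11.2 RPM under APAP. Some of these sums depended on the control pool. With the control pools exchanged, they were at 1.03 and 0.36 for erythroid cells and 0.33 and 0.65 for exocrine pancreas. Cholangiocytes were then at 2.17 and 2.14, with little fall with time, and periportal hepatocytes at 0.53 and 0.97. The part of cell composition in the levels of Mt1, Mt2 and the transporters was not tested.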

How the data were processed

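Hepatic RNA was isolated and digested with DNase, and MACE libraries were prepared from 4 pools. The authors eliminated duplicate reads, mapped on the mouse genome (mm10) and deposited raw HTSeq counts for each gene. Their scaled counts, log2 ratios, p-values and FDR values are in the same table and were not used. DESeq2 is named in the submitters' processing notes.

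Size factors were computed from the deposited counts with DESeq2 1.42.0 (median of ratios; edgeR 4.0.16 as an alternative) in R 4.3.3, and were 0.880 and 0.933 under vehicle and 1.17 and 1.07 under APAP. Neither test was run, since each group is 1 pool. Counts of 3 reads or fewer were set to 3 before a fold was taken. Intervals of folds and shares are 95% exact (Clopper-Pearson), those of levels in the plots are Poisson and those of ratios of folds are conditional (noncentral hypergeometric), and all cover counting error only. Python 3.11.15 with scipy 1.17.1 was used, and the procedure was tested on simulated data. Positions are from GENCODE release M21 (GRCm38) and promoters from RefSeq, with windows for 8 of the 10 members. Ends of transcripts were compared by blastn 2.17.0.

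The members and gene lists were chosen with earlier results of these data known. Named genes were all members, the family genes with at least 20 reads, up to 4 genes past 2-fold from each list, and the 10 genes nearest to the Mt1 and Mt2 profile. Genes named beyond this rule were chosen after their values were seen. Alternatives covered scaling, floor, control pool, threshold and minimum of reads.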

Additional observations from a re-analysis of the deposited data

Results flagged for a closer look

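The fold after APAP at 48 h was divided by that at 24 h for each member. A 95% conditional interval (noncentral hypergeometric) was taken from the counts of all 4 libraries. With size factors, 5 of the 9 with enough reads at both times had intervals that left out 1, against 21.9% of 10361 genes tested. These intervals compare libraries and not mice. All 5 had the smaller fold at 48 h, against 12.3% of 10361 genes tested whose interval lay below 1. The ratio was 0.445 (0.397 to 0.499) for Mt1 and 0.230 (0.187 to 0.281) for Mt2. It was 0.512 (0.275 to 0.952) for Slc30a7, 0.562 (0.431 to 0.732) for Slc39a4 and 0.728 (0.550 to 0.964) for Slc39a14. With library totals, which multiply folds by 1.14 at 24 h and 1.20 at 48 h, the intervals of Slc30a7 and Slc39a14 take in 1. In Mt2 the low control pool at 24 h enters the ratio, since Mt2 had 145 reads there and 353 in the control pool at 48 h, whereas Mt1 had 620 and 683. With the control pools exchanged, the ratio of Mt2 turned to 1.21 (folds of 14.95 and 18.1), and the ratios were 0.481 for Mt1, 0.576 for Slc30a7, 0.843 for Slc39a4 and 0.957 for Slc39a14. Against the sum of both control pools it was 0.528 for Mt2 and 0.463 for Mt1. No intervals were taken with the control pools exchanged or summed, so the count of 5 rests on size factors and on controls of the same time.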

How the results depend on the processing

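Of 62 counts of members recomputed under an alternative, 53 stayed within 1.5 times the reported count and 9 moved. The number of members lower at 48 h was 1 (Slc39a4) and became 0 with library totals, with totals without the 10 most abundant genes, against the other control pool, against the sum of both control pools and at 5-fold, and 2 at 1.5-fold. The number of members that differed in either direction was 1 between the APAP pools and became 3 at 1.5-fold and 0 at 5-fold, and was 1 between the control pools and became 0 at 5-fold. The members higher at 48 h were 2. They were 3, with Slc39a14, under library totals with or without the 10 most abundant genes. The same held against the other control pool, against both and at 1.5-fold. Of 261 values of single genes, 243 moved by less than their counting interval, 18 moved and 0 changed direction in a call. The ratio of the folds of Mt2 at 48 h and 24 h, recomputed after seeing the data, turned from 0.230 to 1.21 with the control pools exchanged. With library totals, 74.2% of all genes called at 24 h and 75.7% at 48 h were higher, against 55.6% and 51.5% with size factors, and Mt1 was 21.04-fold and 9.90-fold higher. Of 144 counts of families and lists recomputed against the other control pool or both, chosen after seeing the data, 114 stayed within 1.5 times and 30 moved. No paired analysis was possible because each group is 1 pool without a replicate number, and no replicate could be left out. Genes under 20 reads, Slc39a5 among them, were not comparable at this depth.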
